A study of Mus musculus with 8 samples.

Results

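Microglia are the resident macrophages of brain tissue, and the meninges, the choroid plexus and the spaces around vessels hold a separate population, the border macrophages. The genes described here are 32 markers of these cells, taken as a fixed list of gene symbols and looked up in the count tables of the hippocampus. All 32 were found among 24421 gene symbols, and all 32 passed the filter on low counts, with between 2 and 2222 counts per library. Of these, 28 mark microglia or brain macrophages in general and 4 (Mrc1, Cd163, Lyve1 and Pf4) mark border macrophages.

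The tissue was the hippocampus of C57BL/6J mouse offspring, labelled wildtype and male. Their mothers received either dexamethasone, a synthetic glucocorticoid, at 1 mg/kg per day for 5 days from 14.5 days post coitum (the group IUGR, intrauterine growth retardation), or the same volume of saline (the group NS), by intraperitoneal injection after random allocation. The 4 groups were IUGR and NS offspring at week 8 and at postnatal day 3, with 2 libraries each, so n = 2 per group throughout. The treatment was given to the mother, and the labels name no litter, so effects on dam and pup cannot be told apart.

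Microglia enter the brain in the embryo from the yolk sac, spread through the tissue and mature after birth. Their survival depends on the receptor Csf1r and its ligands Csf1 and Il34. The transcription factor PU.1, encoded by Spi1, acts with Irf8 to set their gene program, and Sall1 keeps microglia apart from other macrophages. Surface receptors such as P2ry12 and Cx3cr1 read signals from neurons, and Trem2 with its adaptor Tyrobp detects lipids and debris. Border macrophages carry scavenger receptors such as Mrc1 and Cd163. In bulk tissue, fewer cells of a type and less RNA per cell cannot be told apart.

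The libraries held between 13030277 and 18993050 counts, and levels are given as CPM, counts scaled to a library total of 1000000. At postnatal day 3 both libraries numbered 2 went against the label male, since Xist was at 283 CPM in the IUGR and 285 CPM in the NS library while 4 Y-linked genes summed to 4.08 CPM in the IUGR and 1.94 CPM in the NS library. In the other 6 libraries Xist lay between 0.0686 and 4.59 CPM and the Y-linked genes between 134 and 304 CPM. At week 8 both libraries numbered 2 stood apart in Rpph1, the RNA of ribonuclease P, with 0.137 CPM in IUGR and 0 CPM in NS, while it took 4.91% to 7.69% of the counts of the other 6 libraries. Each group holds 1 library of each number, so results are also given among libraries of the same number. Between ages, those numbered 2 set week 8 libraries with low Xist and almost no Rpph1 against postnatal day 3 libraries with high Xist. Age, sex and the Rpph1 difference cannot be told apart in that set, and the age comparisons over all libraries include it. At postnatal day 3 the sex-linked levels show that the 2 libraries of each group are not repeats of 1 animal. At week 8 they do not tell this, the labels do not name the animals, and the spread between those libraries may be that of technical repeats.

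The members lay far apart in level. Per transcript length (TPM, from the authors' gene lengths), the lysosomal protease Ctss and the adaptor Tyrobp were the highest pair in every group. Ctss averaged 115 ± 28.2 TPM in IUGR and 112 ± 7.74 TPM in NS at week 8, and 27.7 ± 1.09 TPM in IUGR and 19.5 ± 2.31 TPM in NS at postnatal day 3 (SD, n = 2). Tyrobp averaged 71.7 ± 20.2 TPM in IUGR and 68.4 ± 32.5 TPM in NS at week 8, and 38.2 ± 13.2 TPM in IUGR and 43.2 ± 7.26 TPM in NS at postnatal day 3. Tyrobp was the higher of the pair at postnatal day 3 and Ctss at week 8, and their ranges of 1 SD overlapped in IUGR at each age but not in NS. Selplg was the lowest of the 32 in both groups at postnatal day 3, at 0.241 ± 0.0239 TPM in IUGR and 0.325 ± 0.0186 TPM in NS, and ranked 11 at week 8. The plot of levels by library shows all members.

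**Figure D1:**
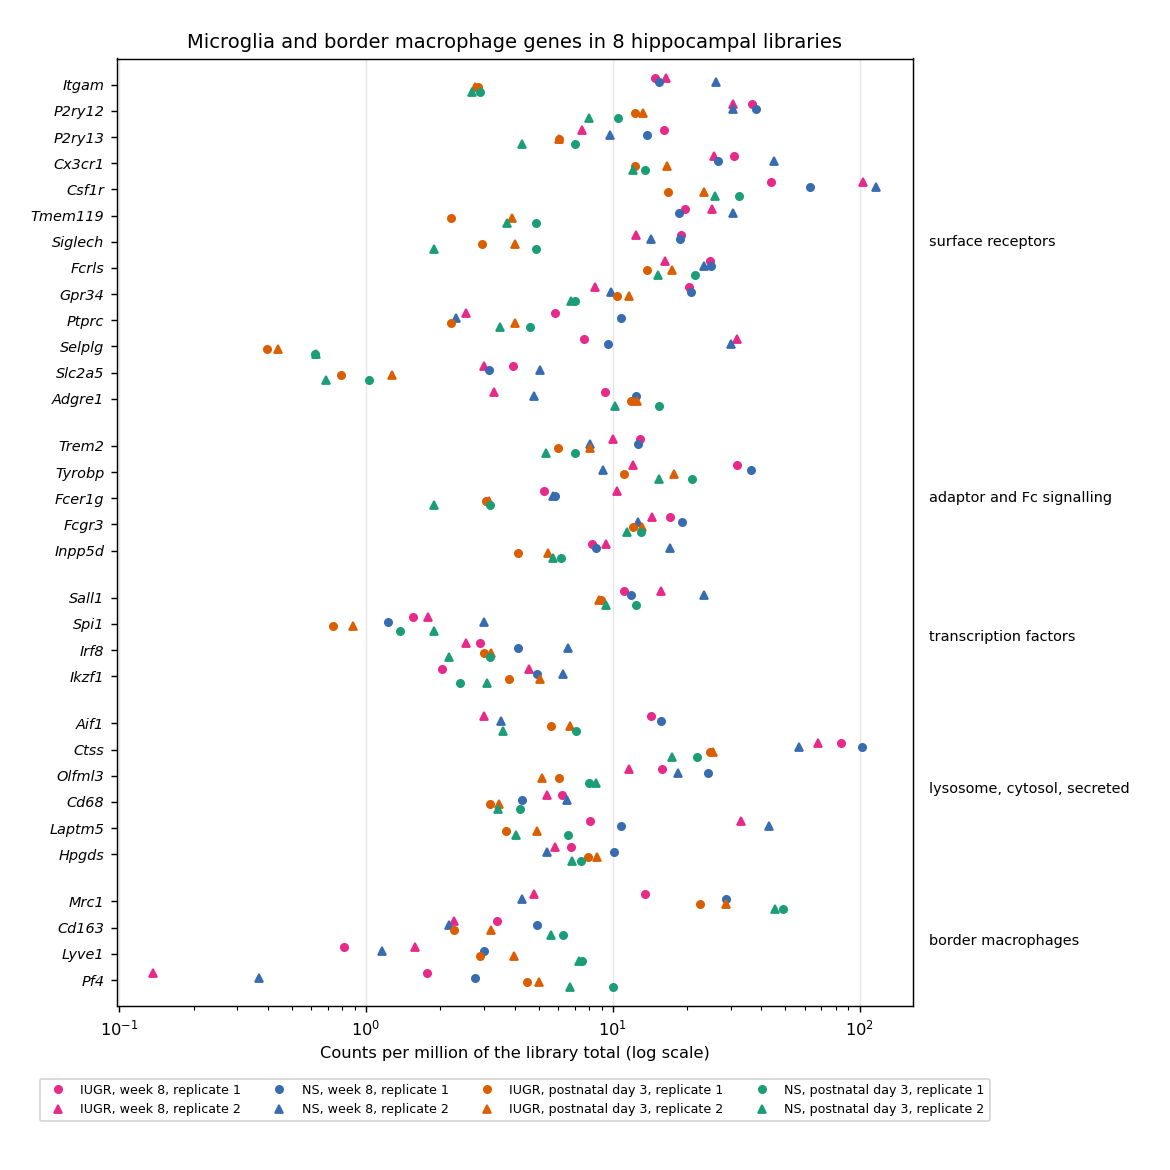
Level of each of the 32 genes in each library, in CPM on a log axis, with genes grouped by role from top to bottom; colours mark the 4 groups and the marker shape the replicate number. Most microglial genes sit further right at week 8 than at postnatal day 3, while Mrc1, Lyve1 and Pf4 at the bottom sit further left.

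Week 8 was compared with postnatal day 3 to follow the microglial genes over maturation, and 9 of the 32 genes rose in each treatment group. Shared by both groups were 8 genes, Itgam, P2ry12, Tmem119, Siglech, Selplg, Slc2a5, Ctss and Olfml3. Cx3cr1 passed the test in NS and Csf1r in IUGR. None of the 32 was called lower in either group, where 7.48% of all genes were in IUGR and 6.43% in NS. A gene was called at an adjusted p under 0.05 by the quasi-likelihood test of edgeR, with Benjamini-Hochberg adjustment over 15999 genes. By that rule 9.34% of all genes were called higher in IUGR and 7.7% in NS, and 6.9% in both.

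Itgam, the CD11b integrin subunit of myeloid cells, had 14.8 and 16.4 CPM in IUGR and 15.3 and 26.1 CPM in NS at week 8, against 2.83 and 2.76 CPM in IUGR and 2.89 and 2.68 CPM in NS at postnatal day 3. Every week 8 library lay above every postnatal day 3 library, and the highest value was that of NS replicate 2 at week 8. The log2 fold change was 2.58 ± 0.34 in IUGR (SE, adjusted p = 0.007) and 2.92 ± 0.34 in NS (adjusted p = 0.00666). Tmem119, a surface protein that tells microglia from other brain macrophages, had 19.5 and 25.2 CPM in IUGR and 18.6 and 30.6 CPM in NS at week 8, against 2.21 and 3.91 CPM in IUGR and 4.88 and 3.71 CPM in NS at postnatal day 3. The ages did not overlap, and its log2 fold change was 2.97 ± 0.42 in IUGR (adjusted p = 0.00863) and 2.55 ± 0.41 in NS (adjusted p = 0.0137).

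P2ry12, the ADP receptor that guides microglial processes to injured cells, had 36.6 and 30.6 CPM in IUGR and 38.1 and 30.7 CPM in NS at week 8, against 12.3 and 13.2 CPM in IUGR and 10.5 and 7.99 CPM in NS at postnatal day 3. It rose by 1.5 ± 0.25 on the log2 scale in IUGR (adjusted p = 0.0126) and by 1.92 ± 0.25 in NS (adjusted p = 0.00808), with no overlap between ages. Ctss had 84.1 and 68.0 CPM in IUGR and 102 and 56.7 CPM in NS at week 8, against 24.8 and 25.4 CPM in IUGR and 21.9 and 17.3 CPM in NS at postnatal day 3. The rise came to 1.71 ± 0.32 on the log2 scale in IUGR (adjusted p = 0.0172) and 2.04 ± 0.32 in NS (adjusted p = 0.0127), and the 2 week 8 libraries numbered 2 were the lower ones of their groups. Siglech, of the family of lectins named for binding sialic acid, had 18.8 and 12.4 CPM in IUGR and 18.6 and 14.3 CPM in NS at week 8, against 2.95 and 4.02 CPM in IUGR and 4.88 and 1.88 CPM in NS at postnatal day 3. Its log2 fold change was 2.27 ± 0.50 in IUGR (adjusted p = 0.0283) and 2.31 ± 0.50 in NS (adjusted p = 0.0303), and the ages again did not overlap.

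Selplg, the ligand of P-selectin, moved furthest of the members. It had 7.64 and 31.9 CPM in IUGR and 9.59 and 30.2 CPM in NS at week 8, against 0.397 and 0.441 CPM in IUGR and 0.619 and 0.628 CPM in NS at postnatal day 3. The ages did not overlap, but the week 8 libraries numbered 2 were several times above those numbered 1, by a ratio of 4.18 in IUGR and 3.14 in NS. The change with age was 5.64 ± 0.95 in IUGR (adjusted p = 0.0138) and 5.01 ± 0.92 in NS (adjusted p = 0.0196). Slc2a5, a fructose transporter, had 3.92 and 3.02 CPM in IUGR and 3.15 and 5.05 CPM in NS at week 8, against 0.794 and 1.27 CPM in IUGR and 1.03 and 0.685 CPM in NS at postnatal day 3. It lay higher in all week 8 libraries, with a log2 fold change of 1.85 ± 0.49 in IUGR (adjusted p = 0.0459) and 2.29 ± 0.50 in NS (adjusted p = 0.03). Olfml3, a secreted protein, had 15.8 and 11.6 CPM in IUGR and 24.3 and 18.4 CPM in NS at week 8, against 6.07 and 5.18 CPM in IUGR and 7.98 and 8.51 CPM in NS at postnatal day 3. It rose by 1.39 ± 0.28 in IUGR (adjusted p = 0.0222) and by 1.40 ± 0.28 in NS (adjusted p = 0.0244) on the log2 scale.

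The receptors that passed the test in 1 group had a fold change of like sign in the other. Csf1r, the receptor on which microglial survival depends, had 43.8 and 103 CPM in IUGR and 62.9 and 117 CPM in NS at week 8, against 16.7 and 23.3 CPM in IUGR and 32.6 and 26.0 CPM in NS at postnatal day 3. Its log2 fold change was 1.98 ± 0.49 in IUGR (adjusted p = 0.0398) and 1.65 ± 0.49 in NS (adjusted p = 0.0697). Cx3cr1, the receptor of the neuronal ligand fractalkine, had 30.9 and 25.7 CPM in IUGR and 26.7 and 44.8 CPM in NS at week 8, against 12.3 and 16.5 CPM in IUGR and 13.5 and 12.1 CPM in NS at postnatal day 3. That gave a log2 fold change of 1.08 ± 0.32 in IUGR (adjusted p = 0.0624) and 1.52 ± 0.32 in NS (adjusted p = 0.0283). Both genes were higher at week 8 in all libraries, and the difference between the treatment groups passed the test for neither. Csf1r shares 873 exonic bases with the opposite-strand gene Hmgxb3, which had 46.1 to 57.0 CPM, and without known strandedness reads there cannot be assigned.

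The remaining receptors moved less or unevenly and passed the test in neither group. P2ry13, another ADP receptor, had 7.47 to 16.2 CPM at week 8 and 4.28 to 7.01 CPM at postnatal day 3. Gpr34, a receptor for lysophosphatidylserine, had 8.50 to 20.7 CPM at week 8 and 6.79 to 11.7 CPM at postnatal day 3. Fcrls, an Fc receptor-like protein of microglia, had 16.2 to 25.0 CPM at week 8 and 13.8 to 21.6 CPM at postnatal day 3. Ptprc, the CD45 phosphatase of blood-lineage cells, had 2.32 to 10.8 CPM at week 8 and 2.21 to 4.61 CPM at postnatal day 3, so the ages overlapped. Adgre1, the F4/80 antigen of macrophages, was the receptor with a negative log2 fold change, -0.85 ± 0.61 in IUGR and -0.55 ± 0.60 in NS, from 3.29 to 12.4 CPM at week 8 and 10.2 to 15.4 CPM at postnatal day 3.

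Among the genes of Trem2 and Fc receptor signalling all 5 had a positive log2 fold change in both groups, but none passed the test. Of all 15999 genes, 8093 were positive in IUGR and 8241 in NS. The median of the 5 was 0.81 in IUGR and 0.76 in NS, against 0.02 in IUGR and 0.04 in NS over all genes. Trem2, the lipid receptor, had 8.11 to 12.8 CPM at week 8 and 5.37 to 8.05 CPM at postnatal day 3. Fcer1g, the common gamma chain of Fc receptors, had 5.28 to 10.4 CPM at week 8 and 1.88 to 3.16 CPM at postnatal day 3, and Fcgr3, a low-affinity IgG receptor, had 12.7 to 19.1 CPM at week 8 and 11.4 to 13.2 CPM at postnatal day 3. Inpp5d, the SHIP1 phosphatase that opposes PI3-kinase signalling, had 8.25 to 17.1 CPM at week 8 and 4.14 to 6.19 CPM at postnatal day 3. The adaptor Tyrobp had 31.8 and 12.1 CPM in IUGR and 36.3 and 9.11 CPM in NS at week 8, against 11.1 and 17.6 CPM in IUGR and 20.8 and 15.4 CPM in NS at postnatal day 3. Its week 8 values straddled those of postnatal day 3, and both libraries numbered 2 were the low ones.

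The 4 transcription factors did not pass the test with age in either group. Sall1, which in the brain is also made by neural progenitors, had 11.1 to 23.5 CPM at week 8 and 8.76 to 12.4 CPM at postnatal day 3. Spi1, which encodes PU.1, was low, at 1.23 to 3.00 CPM at week 8 and 0.737 to 1.88 CPM at postnatal day 3. Irf8, the partner of PU.1, had 2.91 and 2.54 CPM in IUGR and 4.14 and 6.58 CPM in NS at week 8, against 3.00 and 3.20 CPM in IUGR and 3.16 and 2.17 CPM in NS at postnatal day 3. Ikzf1, a zinc finger factor of blood lineages, had 2.03 and 4.59 CPM in IUGR and 4.91 and 6.26 CPM in NS at week 8, against 3.80 and 5.07 CPM in IUGR and 2.41 and 3.08 CPM in NS at postnatal day 3. Irf8 and Ikzf1 were higher at week 8 than at postnatal day 3 in NS without overlap (29.2% of all genes), at log2 fold changes of 1.04 ± 0.40 (adjusted p = 0.126) and 1.05 ± 0.47 (adjusted p = 0.175). In IUGR the same values were -0.08 ± 0.40 and -0.31 ± 0.46.

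Of the lysosomal, cytosolic and secreted products, Ctss and Olfml3 rose as given above. Laptm5, a lysosomal membrane protein, had 8.05 and 33.1 CPM in IUGR and 10.7 and 42.9 CPM in NS at week 8, against 3.69 and 4.91 CPM in IUGR and 6.60 and 4.05 CPM in NS at postnatal day 3. It was higher at week 8 in all libraries, but the replicates lay about as far apart as the ages, and the log2 fold change of 2.37 in each group (SE 0.86) did not pass the test (adjusted p = 0.107 in IUGR and 0.114 in NS). Aif1, the cytosolic protein Iba1 that is stained to count microglia, had 14.3 and 3.02 CPM in IUGR and 15.7 and 3.53 CPM in NS at week 8, against 5.61 and 6.72 CPM in IUGR and 7.08 and 3.60 CPM in NS at postnatal day 3. The ages overlapped for Aif1. Cd68, a lysosomal glycoprotein, had 4.30 to 6.53 CPM at week 8 and 3.17 to 4.20 CPM at postnatal day 3, and Hpgds, the blood-lineage prostaglandin D synthase, had 5.42 to 10.1 CPM at week 8 and 6.85 to 8.60 CPM at postnatal day 3.

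Summed over the 28 microglial genes, the level was 480 and 494 CPM in IUGR and 547 and 574 CPM in NS at week 8, against 199 and 237 CPM in IUGR and 251 and 196 CPM in NS at postnatal day 3. All week 8 sums lay above all postnatal day 3 sums, by a ratio of means of 2.24 in IUGR and 2.51 in NS. The median log2 fold change of these 28 genes was 1.03 in IUGR and 1.11 in NS. Among libraries numbered 1 the medians were 1.13 in IUGR and 0.91 in NS, and among those numbered 2 they were 0.67 in IUGR and 1.19 in NS. In the set numbered 2 the Xist and Rpph1 levels differed along with age, so it is no like-for-like check. In all, 16 of the 32 genes were higher at week 8 without overlap in both treatment groups, where 23.2% of all genes were so (28.1% in IUGR and 29.2% in NS, each alone). Astrocyte markers moved the same way, with a summed ratio of 4.60 in IUGR and 4.27 in NS, and hippocampal neuron markers had 2.53 in IUGR and 2.79 in NS. The neuron ratio was 1.11 in IUGR and 1.24 in NS among libraries numbered 1, and 4.39 in IUGR and 4.48 in NS among those numbered 2. The part of these cell types in the microglial result was not tested.

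**Figure D2:**
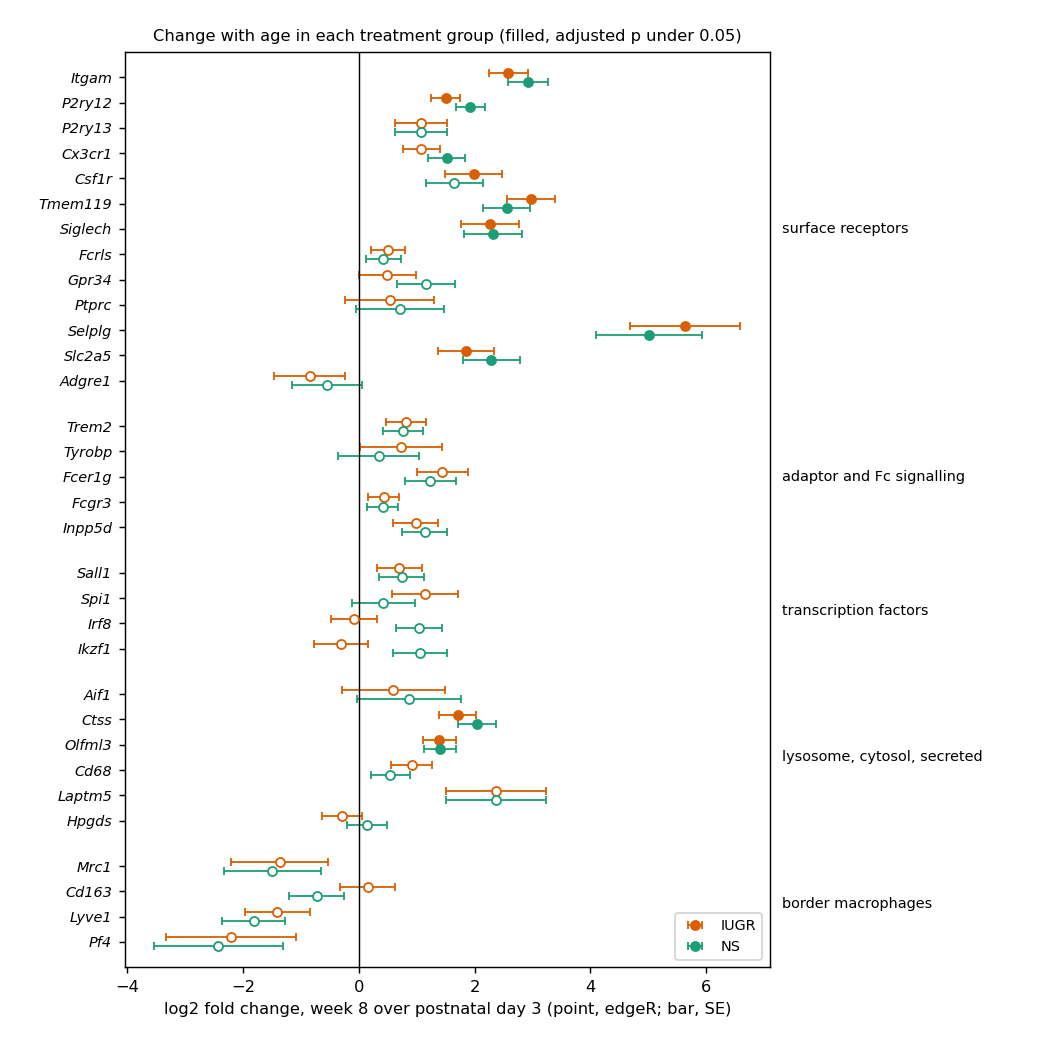
Log2 fold change of week 8 over postnatal day 3 for each gene in IUGR (upper point) and NS (lower point), with the standard error as a bar and filled points for an adjusted p under 0.05. The filled points are the 9 genes called higher in each group, and all 4 border macrophage genes are open.

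As for all genes, whose counts by setting are given below, the number of members called with age rested on single libraries. It was 0 without either IUGR library of postnatal day 3 and 0 without either NS library of postnatal day 3, for the group that lost the library. The size of the change moved less. Over all settings the median log2 fold change of the 28 microglial genes lay between 0.88 and 1.13 in IUGR. In NS that median lay between 0.98 and 1.33. The lowest log2 fold change of Itgam over all settings was 2.48 in IUGR and 2.47 in NS.

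Of the 4 border macrophage genes, 3 had a negative log2 fold change with age in both groups, and none was called. Mrc1, the mannose receptor CD206, had 13.5 and 4.80 CPM in IUGR and 28.8 and 4.26 CPM in NS at week 8, against 22.5 and 28.7 CPM in IUGR and 49.1 and 45.4 CPM in NS at postnatal day 3. Week 8 lay below postnatal day 3 in both groups without overlap, at a log2 fold change of -1.37 ± 0.84 in IUGR (adjusted p = 0.293) and -1.5 ± 0.84 in NS (adjusted p = 0.265). Lyve1, a hyaluronan receptor, had 0.811 and 1.58 CPM in IUGR and 2.99 and 1.16 CPM in NS at week 8, against 2.89 and 3.97 CPM in IUGR and 7.50 and 7.31 CPM in NS at postnatal day 3. It too was lower at week 8 without overlap within each treatment group, at -1.41 ± 0.56 in IUGR (adjusted p = 0.132) and -1.82 ± 0.55 in NS (adjusted p = 0.0744). Pf4, a chemokine of platelets that border macrophages also make, had 1.76 and 0.137 CPM in IUGR and 2.76 and 0.369 CPM in NS at week 8, against 4.48 and 5.02 CPM in IUGR and 10.0 and 6.68 CPM in NS at postnatal day 3. It lay lower at week 8 in all libraries, and its IUGR replicate 2 value rests on 2 counts, under the floor of 3 counts (0.206 CPM there). Its log2 fold change was -2.21 ± 1.13 in IUGR (adjusted p = 0.217) and -2.43 ± 1.11 in NS (adjusted p = 0.186).

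Cd163, the scavenger receptor for haemoglobin bound to haptoglobin, had 3.38 and 2.26 CPM in IUGR and 4.91 and 2.16 CPM in NS at week 8, against 2.27 and 3.20 CPM in IUGR and 6.26 and 5.59 CPM in NS at postnatal day 3. In IUGR the ages overlapped, with a log2 fold change of 0.15 ± 0.48 (adjusted p = 0.847), and in NS they did not, at -0.73 ± 0.48 (adjusted p = 0.334). Of the 4 genes, 3 (Mrc1, Lyve1 and Pf4) were lower without overlap in both groups, where 28.4% of all genes were so (37.9% in IUGR and 32.6% in NS, each alone). The 4 genes summed to 19.5 and 8.78 CPM in IUGR and 39.5 and 7.95 CPM in NS at week 8, against 32.1 and 40.8 CPM in IUGR and 72.9 and 65.0 CPM in NS at postnatal day 3. The ratio of means was 0.387 in IUGR and 0.344 in NS. Among libraries numbered 1 it was 0.606 in IUGR and 0.541 in NS, and among those numbered 2 it was 0.215 in IUGR and 0.122 in NS. Xist and Rpph1 also differed between the ages in the set numbered 2, and their part was not tested.

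At postnatal day 3, IUGR was compared with NS to ask whether prenatal dexamethasone left a mark on these genes in the newborn hippocampus. No member was called, as no gene was called at all (0 of 15999, 0.0%) by edgeR, with 96 genes (0.6%) at an unadjusted p under 0.05 and 0 of them members. The 4 border macrophage genes were nonetheless lower in both IUGR libraries than in both NS libraries, while the microglial genes fell to both sides of zero. The share of all genes that were lower in IUGR without overlap was 16.6%, and that of genes higher without overlap was 19.7%.

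Mrc1 had 22.5 and 28.7 CPM in IUGR and 49.1 and 45.4 CPM in NS at postnatal day 3. The IUGR libraries were both below the NS libraries, with a log2 fold change of -0.89 ± 0.83 (adjusted p = 1). Cd163 had 2.27 and 3.20 CPM in IUGR and 6.26 and 5.59 CPM in NS. That gave -1.12 ± 0.48 on the log2 scale (unadjusted p = 0.0553, adjusted p = 1 by edgeR), the smallest p of the members. Lyve1 had 2.89 and 3.97 CPM in IUGR and 7.50 and 7.31 CPM in NS. Its groups did not overlap either, at -1.11 ± 0.53 (adjusted p = 1). Pf4 had 4.48 and 5.02 CPM in IUGR and 10.0 and 6.68 CPM in NS. The log2 fold change was -0.82 ± 1.04 (adjusted p = 1), with the IUGR libraries below NS.

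The standard errors above carry the wide spread of these genes at week 8, since the model holds 1 estimate of spread for all groups. Fitted on the 4 libraries of postnatal day 3 alone with edgeR, the log2 fold changes were -0.89 ± 0.15 for Mrc1 (adjusted p = 0.264), -1.12 ± 0.28 for Cd163 (0.651), -1.11 ± 0.26 for Lyve1 (0.524) and -0.81 ± 0.27 for Pf4 (0.869). DESeq2 on the same 4 libraries called Mrc1 lower (adjusted p = 0.00151), among 63 genes called lower of 15435 (0.408%), and called no other member. Over all settings tried the adjusted p of Mrc1 ran from 0.00151 to 1 and its log2 fold change from -1.12 to -0.70.

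Summed over the 4 genes, IUGR had 32.1 and 40.8 CPM and NS 72.9 and 65.0 CPM, a ratio of means of 0.529. The IUGR libraries were both below the NS libraries, among those numbered 1 by a ratio of 0.441 and among those numbered 2 by 0.629. As a share of the counts of the 28 microglial genes, the 4 genes came to 16.2% and 17.2% in IUGR, against 29.0% and 33.2% in NS. The median log2 fold change was -1.0 for these 4 and 0.02 for the 28, beside 0.01 for all genes. Over all settings the median of the 4 lay between -1.26 and -0.77.

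A wider list of 20 macrophage genes that are not members, chosen with earlier results of these data known, moved alike. Of 16 tested, 15 had a negative log2 fold change and 12 were lower without overlap, beside 16.6% of all genes. The median of the 16 was -0.79, with no call. Stab1, a scavenger receptor, had 11.9 and 15.6 CPM in IUGR and 34.2 and 24.6 CPM in NS (log2 fold change -1.10 ± 0.27, unadjusted p = 0.00577, adjusted p = 1 by edgeR). The IUGR libraries were both below NS. Ms4a6c (-1.21 ± 0.65), Mgl2 (-1.43 ± 0.89) and Siglec1 (-1.47 ± 0.96) followed by p. The 20 genes summed to 87.9 and 99.3 CPM in IUGR, against 165 and 148 CPM in NS.

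Markers of the tissue in which border macrophages lie, from lists chosen in the same way, moved with them in part. The 15 meningeal fibroblast genes were all lower in IUGR without overlap, beside 16.6% of all genes, by -1.03 in the median on the log2 scale. With 0 called, they summed to 530 and 592 CPM in IUGR, against 1412 and 1200 CPM in NS. Their ratio was 0.376 among libraries numbered 1 and 0.494 among those numbered 2, and no gene of that list was at 0. Of 15 endothelial genes 14 were negative and 12 were lower without overlap, beside the same 16.6% of all genes. The 15 genes summed to 177 and 170 CPM in IUGR and 260 and 241 CPM in NS. Choroid plexus genes did not follow the groups, at 3437 and 517 CPM in IUGR and 154 and 6600 CPM in NS. The part of these tissues in the macrophage result was not tested.

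**Figure D3:**
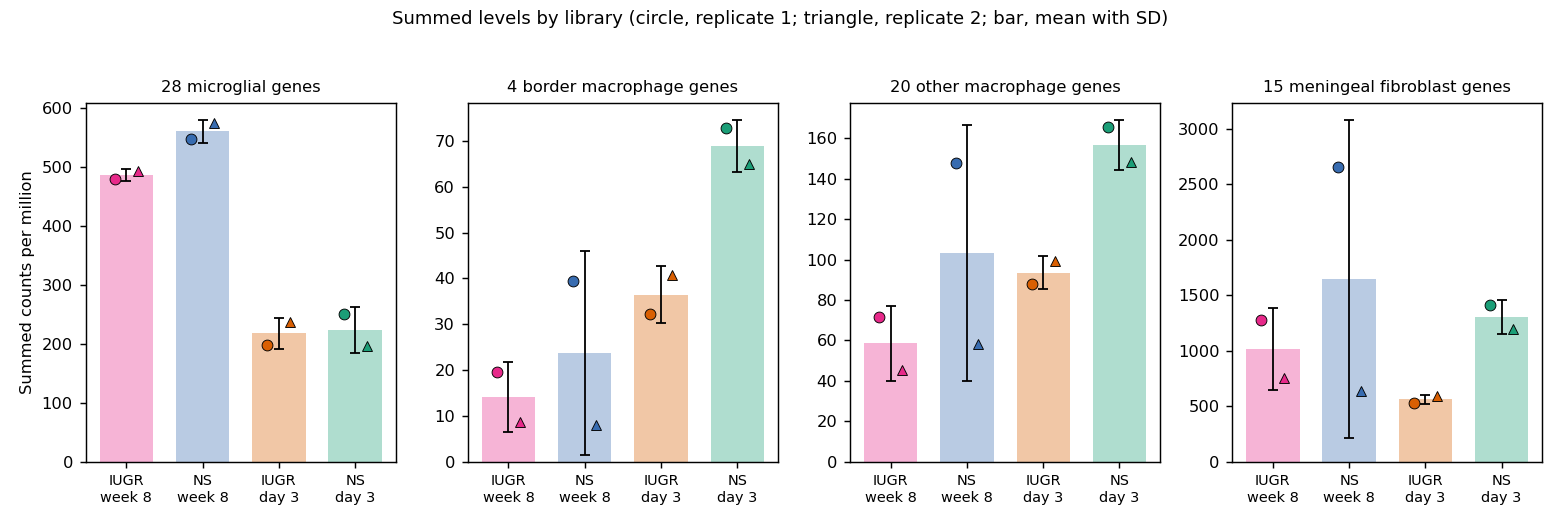
Summed CPM in each library for the 28 microglial genes, the 4 border macrophage genes, 20 other macrophage genes and 15 meningeal fibroblast genes; points are libraries, bars the mean of 2 and lines the SD, each panel with its own linear axis from 0. At postnatal day 3 the IUGR points lie below the NS points in the last 3 panels, and at week 8 the NS library numbered 1 stands above the other 3 in them.

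The microglial genes at postnatal day 3 showed no common direction: 15 of 28 had a positive and 13 a negative log2 fold change, beside 52.0% and 48.0% of all genes. In IUGR, 5 were higher without overlap (P2ry12, Gpr34, Ctss, Ikzf1 and Hpgds) and 6 lower (Csf1r, Selplg, Inpp5d, Sall1, Spi1 and Olfml3), none past the test, beside 19.7% of all genes higher and 16.6% lower without overlap. P2ry12 had 12.3 and 13.2 CPM in IUGR and 10.5 and 7.99 CPM in NS, a log2 fold change of 0.46 ± 0.24 (unadjusted p = 0.103, adjusted p = 1 by edgeR). Olfml3 had 6.07 and 5.18 CPM in IUGR and 7.98 and 8.51 CPM in NS, or -0.55 ± 0.28 (unadjusted p = 0.0916, adjusted p = 1 by edgeR). In neither gene did the groups overlap.

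The direction of the microglial genes depended on which libraries were compared. Among libraries numbered 1, 23 of 28 genes were lower in IUGR (median -0.32 on the log2 scale of CPM + 0.5, against -0.01 for all genes), and among those numbered 2, which had the high Xist level, 6 of 28 were lower (median 0.27, against 0.03). Siglech was the widest case, at a ratio of IUGR over NS of 0.604 among libraries numbered 1 and 2.14 among those numbered 2. The 28 genes summed to 199 and 237 CPM in IUGR and 251 and 196 CPM in NS. The 4 border macrophage genes were lower in both sets. The plot of ratios among libraries of the same number shows this contrast.

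**Figure D4:**
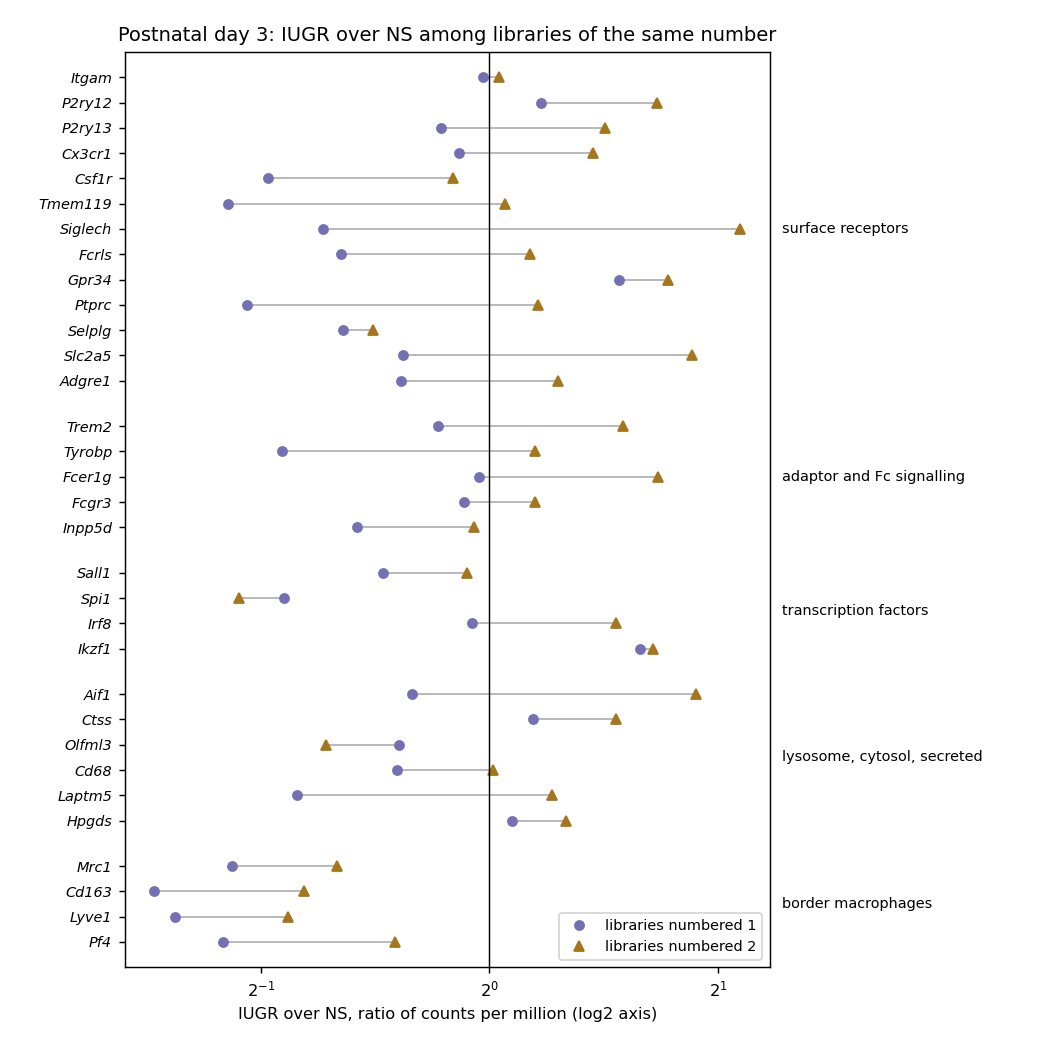
Ratio of IUGR over NS at postnatal day 3 for each gene, on a log2 axis, among libraries numbered 1 (circles) and numbered 2 (triangles), joined by a line. Circles of 23 of the 28 microglial genes lie left of 1 and triangles of 22 lie right of or at it, while both markers of the 4 border macrophage genes lie left of 1.

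At week 8 no gene passed the test between IUGR and NS (0 of 15999, 0.0%), with 160 genes (1.0%) at an unadjusted p under 0.05 and 0 of them members. The smallest p of the members was that of Irf8, which had 2.91 and 2.54 CPM in IUGR and 4.14 and 6.58 CPM in NS. Both IUGR libraries were below both NS libraries, at a log2 fold change of -0.91 ± 0.40 (unadjusted p = 0.0576, adjusted p = 1 by edgeR). Olfml3 had 15.8 and 11.6 CPM in IUGR and 24.3 and 18.4 CPM in NS, or -0.56 ± 0.28 (unadjusted p = 0.083, adjusted p = 1). Ikzf1 had 2.03 and 4.59 CPM in IUGR and 4.91 and 6.26 CPM in NS, or -0.68 ± 0.47 (adjusted p = 1). These 3 genes were the members that were lower in IUGR without overlap, and 9.01% of all genes were so; 0 members and 4.08% of all genes were higher without overlap.

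The 28 microglial genes had a median log2 fold change of -0.17 at week 8, beside 0.02 for all genes, and 18 of 28 were negative and 10 positive, against 47.1% and 52.8% of all genes. Their sums of 480 and 494 CPM in IUGR and 547 and 574 CPM in NS did not overlap, with a ratio of means of 0.869. The ratio was 0.877 among libraries numbered 1 and 0.861 among those numbered 2. Scaled by TMM the ratio was 0.915. All 4 transcription factors were negative, with a median of -0.51, Sall1 and Spi1 at -0.33 ± 0.39 and -0.28 ± 0.55. The genes of Trem2 and Fc receptor signalling were positive in 4 of 5, with Fcer1g at 0.52 ± 0.43.

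No border macrophage gene was called between IUGR and NS at week 8, and the direction of the 4 depended on which libraries were compared. Mrc1 had 13.5 and 4.80 CPM in IUGR and 28.8 and 4.26 CPM in NS. Its log2 fold change of -0.76 ± 0.84 (adjusted p = 1) was 1.16 without NS replicate 1. Cd163 had 3.38 and 2.26 CPM in IUGR and 4.91 and 2.16 CPM in NS (-0.24 ± 0.48), Lyve1 0.811 and 1.58 CPM in IUGR and 2.99 and 1.16 CPM in NS (-0.70 ± 0.57) and Pf4 1.76 and 0.137 CPM in IUGR and 2.76 and 0.369 CPM in NS (-0.60 ± 1.15), all with an adjusted p of 1 and overlapping groups. NS replicate 1 had the highest value of each of the 4 genes. The sum ratio was 0.494 among libraries numbered 1 and 1.10 among those numbered 2, and that of the meningeal genes was 0.481 and 1.20. The same NS library held 8834 CPM of choroid plexus genes, where the other 3 held 201 to 347 CPM; the part of this tissue in the macrophage values was not tested.

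The difference of the IUGR effect between the ages was tested as an interaction, and 0 genes passed (0.0%), with 82 (0.513%) at an unadjusted p under 0.05 and 0 members. Ikzf1 and Irf8 had the smallest p of the members, with differences of -1.37 ± 0.66 (unadjusted p = 0.0788) and -1.12 ± 0.56 (unadjusted p = 0.0864) on the log2 scale and an adjusted p of 1 by edgeR. Ikzf1 lay higher in IUGR than in NS in both libraries at postnatal day 3, at 3.80 and 5.07 CPM in IUGR and 2.41 and 3.08 CPM in NS, and lower in both at week 8. Cd163 followed with 0.88 ± 0.68 and P2ry12 with -0.42 ± 0.34. For the other border macrophage genes the differences were 0.13 ± 1.17 (Mrc1), 0.41 ± 0.78 (Lyve1) and 0.22 ± 1.57 (Pf4).

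The replicates of week 8 lay apart in a way that both treatment groups shared. In 16 of the 32 genes both libraries numbered 2 were below both numbered 1 (37.6% of all genes), and in 8 they were above both (36.1% of all genes). Replicates were over 2-fold apart in 12 members in IUGR and 12 in NS at week 8, against 0 in IUGR and 1 in NS at postnatal day 3. The same count was not made over all genes, so these numbers do not set the members apart. Aif1 in replicate 2 was at 0.211 of replicate 1 in IUGR and 0.224 in NS. In IUGR the same ratio was 0.380 for Tyrobp, 0.0780 for Pf4, 0.355 for Adgre1 and 0.355 for Mrc1, and in NS it was 0.251 for Tyrobp, 0.133 for Pf4, 0.385 for Adgre1 and 0.148 for Mrc1. Above 1 were Laptm5 (4.11 in IUGR and 3.99 in NS), Selplg (4.18 in IUGR and 3.14 in NS) and Csf1r (2.35 in IUGR and 1.86 in NS). The summed level of the 28 microglial genes was alike, at 1.03 in IUGR and 1.05 in NS. With Rpph1 left out of the library total these ratios were 0.962 in IUGR and 0.968 in NS.

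The genes low in these libraries had short and long transcripts. Tyrobp is listed at 566 bases, Pf4 at 588 and Aif1 at 875. Fcer1g, at 658 bases, was at 1.98 in IUGR and 0.984 in NS, and Mrc1 and Ptprc, at 5318 and 5666 bases, were among the low ones. The markers Aif1 and Tmem119, both in use to count microglia, thus went opposite ways between the same 2 libraries: Tmem119 in replicate 2 was at 1.29 of replicate 1 in IUGR and 1.65 in NS. Hippocampal neuron genes were also apart, at a summed ratio of 3.01 in IUGR and 3.28 in NS; the part of dissection and of library making in this split was not tested.

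**Figure D5:**
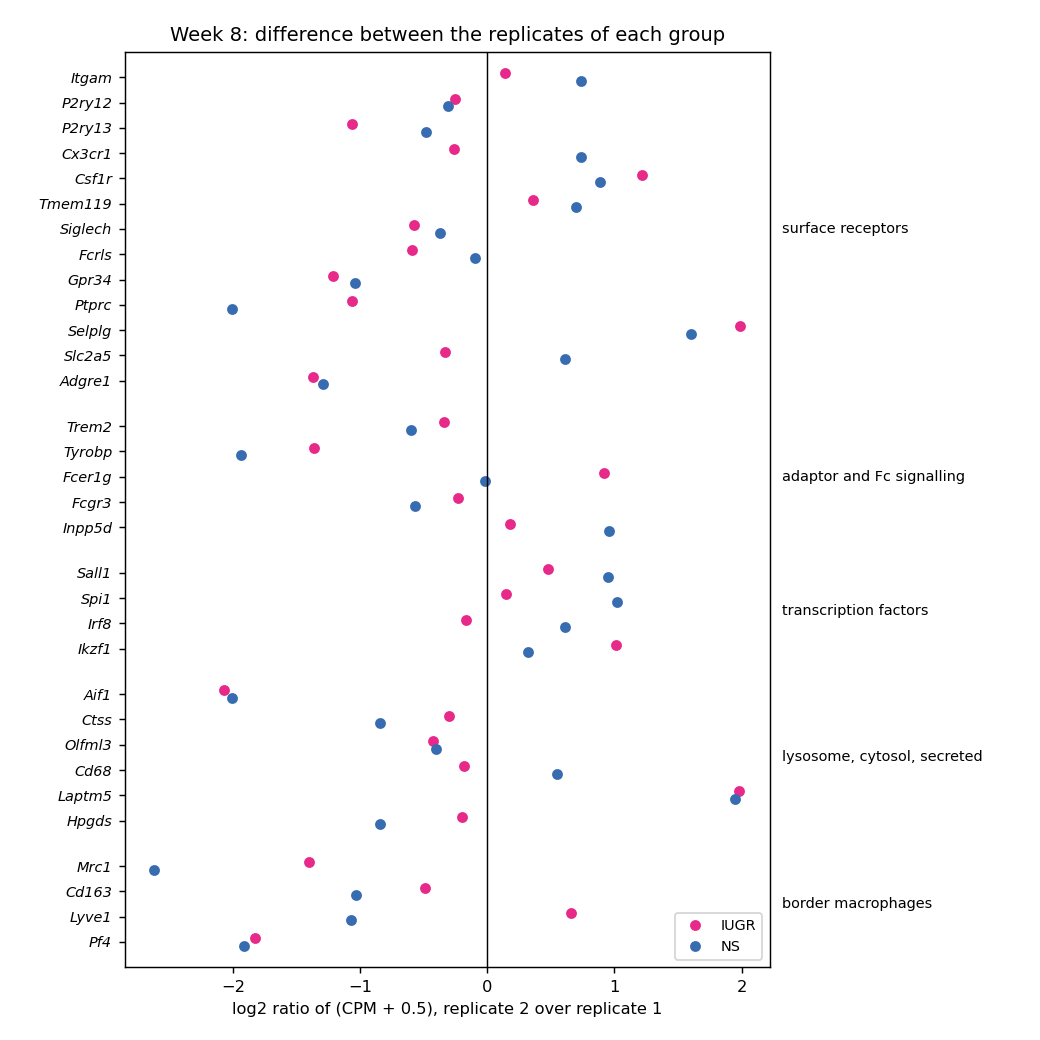
Log2 ratio of replicate 2 over replicate 1 at week 8 for each gene in IUGR and NS, from CPM with 0.5 added. Points of a gene in the 2 groups mostly lie on the same side of 0, with Aif1, Tyrobp, Adgre1, Mrc1 and Pf4 to the left and Laptm5, Selplg and Csf1r to the right.

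Other genes of the microglial program followed the members with age. Of 39 further microglial genes tested, 9 were called higher in IUGR and 7 in NS, beside 9.34% and 7.7% of all genes. Of the 39, 0 were called lower, and their median log2 fold change was 0.94 in IUGR and 0.78 in NS. Mertk, a phagocytic receptor that astrocytes also make, rose by 3.28 ± 0.41 in IUGR (adjusted p = 0.00635 by edgeR) and 3.29 ± 0.41 in NS (adjusted p = 0.0076) on the log2 scale, and the complement genes C1qa and C1qb by 1.82 ± 0.25 and 1.72 ± 0.22 in IUGR and by 1.44 ± 0.25 and 1.28 ± 0.22 in NS.

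Signals by which other cells keep or restrain microglia were called in 7 of 14 genes in each group, 6 higher and 1 lower. Of all genes, 9.34% were called higher and 7.48% lower in IUGR, and 7.7% higher and 6.43% lower in NS. Il34, the neuronal ligand of Csf1r, had 31.8 and 46.5 CPM in IUGR and 30.5 and 52.9 CPM in NS at week 8, against 2.38 and 3.09 CPM in IUGR and 5.30 and 4.85 CPM in NS at postnatal day 3. It rose by 3.94 ± 0.39 in IUGR (adjusted p = 0.00375) and 3.07 ± 0.37 in NS (adjusted p = 0.00727). Apoe rose by 1.64 ± 0.27 in IUGR and 1.53 ± 0.27 in NS, Csf1 by 1.57 ± 0.25 in IUGR and 1.31 ± 0.25 in NS, and the alarmin Il33 by 4.22 ± 0.81 in IUGR and 4.70 ± 0.84 in NS. Cd200, a neuronal ligand that restrains microglia, had the opposite sign and fell by 1.32 on the log2 scale in IUGR (adjusted p = 0.0115) and by 1.62 in NS (adjusted p = 0.00812). At postnatal day 3 Il34 and Csf1 were lower in both IUGR than in both NS libraries, at -0.89 ± 0.36 and -0.54 ± 0.25 (adjusted p = 1 by edgeR for each).

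Genes of activated phagocytes showed no common direction with age. Of 19 tested, 2 were called higher and 2 lower in IUGR, beside 9.34% and 7.48% of all genes. In NS 1 of the 19 was called higher and 1 lower, beside 7.7% and 6.43% of all genes. The median of the 19 on the log2 scale was -0.26 in IUGR and -0.23 in NS. Axl, a phagocytic receptor kinase, rose by 1.43 ± 0.27 in IUGR and 1.29 ± 0.27 in NS, and Gpnmb by 1.27 ± 0.34 in IUGR. Fabp5, a fatty acid carrier that neural progenitors also make, fell by 2.53 in IUGR and by 2.43 in NS on the log2 scale, and Ccl3 fell by 2.75 in IUGR. The cytokine gene Tnf had at most 0.0767 CPM in any library. In the same list 0 of 19 genes were called between IUGR and NS at either age.

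The promoters of members that moved together with age, and of Mrc1, are shown to set their letters side by side. Windows from 250 bases before to 50 after the transcript start of RefSeq (GRCm38.p6) were given for 24 of the 32 genes, in 30 windows. They were searched on both strands for GAGGAA, the core of the PU.1 site, which reads TTCCTC on the other strand. GAGGAA was in 16 of 30 member windows (53.3%), against 28.3% of 32851 windows of all genes. A match is a description of these letters and not a site. Capitals mark GAGGAA or TTCCTC in the 250 bases before the start.
Itgam promoter, chr7:128062390-128062639, plus strand: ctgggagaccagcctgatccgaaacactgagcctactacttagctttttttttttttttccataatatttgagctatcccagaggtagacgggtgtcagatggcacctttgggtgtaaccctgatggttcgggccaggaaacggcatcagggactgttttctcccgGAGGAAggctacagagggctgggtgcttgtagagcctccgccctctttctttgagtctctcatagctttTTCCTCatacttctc
Ctss promoter, chr3:95526536-95526785, plus strand: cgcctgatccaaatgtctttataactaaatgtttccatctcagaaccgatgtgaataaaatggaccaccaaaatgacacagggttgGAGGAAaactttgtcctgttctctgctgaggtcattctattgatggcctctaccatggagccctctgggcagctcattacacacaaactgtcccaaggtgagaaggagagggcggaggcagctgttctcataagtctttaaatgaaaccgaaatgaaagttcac
P2ry12 promoter, chr3:59262986-59263235, minus strand: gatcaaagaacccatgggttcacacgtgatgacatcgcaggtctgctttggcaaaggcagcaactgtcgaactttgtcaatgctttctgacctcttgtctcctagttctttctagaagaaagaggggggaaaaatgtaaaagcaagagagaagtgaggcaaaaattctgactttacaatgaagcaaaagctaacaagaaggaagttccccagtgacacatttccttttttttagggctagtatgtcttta
Mrc1 promoter, chr2:14229164-14229413, plus strand: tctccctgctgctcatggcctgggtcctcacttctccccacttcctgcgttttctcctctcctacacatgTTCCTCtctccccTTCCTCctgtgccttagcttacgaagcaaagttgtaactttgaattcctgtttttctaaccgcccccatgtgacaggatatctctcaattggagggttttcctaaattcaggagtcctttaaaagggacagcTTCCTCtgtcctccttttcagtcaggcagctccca
Itgam lies at chr7:128062640-128118491 on the plus strand in GENCODE M21 (GRCm38), and its first match began at -84 from the start. In Ctss, at chr3:95526786-95556403 on the plus strand, the first match began at -164. P2ry12, at chr3:59216272-59262871 on the minus strand, rose with age as they did and held no match in this window. Of the other genes called higher in both groups, Siglech held a match and Slc2a5 and Olfml3 held none. Tmem119 and Selplg had no window, and Cx3cr1, called in NS, held no match. Mrc1, at chr2:14229392-14332057 on the plus strand, held 3 matches, the first at -180 and the last at -35, and its level went the other way with age.

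Overlaps with other genes make the counts of 6 further members less certain. Itgam shares 3450 exonic bases with the read-through gene Gm49368 on the same strand, where reads cannot be assigned to 1 of the pair. P2ry12 shares 9 bases with Med12l on the opposite strand, and P2ry13 lies in an intron of it; Med12l had 33.9 to 65.9 CPM at week 8 and 26.9 to 42.5 CPM at postnatal day 3. Gpr34 lies in an intron of Cask on the opposite strand, and Cask had 59.6 to 104 CPM at week 8 and 209 to 248 CPM at postnatal day 3, the direction opposite to Gpr34. Cx3cr1 shares 78 exonic bases with the opposite-strand gene Gm33858, and Irf8 lies in an intron of Gm20388 on the same strand; levels of Gm49368, Gm33858 and Gm20388 were not analysed here.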

How the data were processed

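Hippocampal total RNA was depleted of ribosomal RNA and sequenced from random-primed cDNA in paired ends, per the labels' protocols. Per the submitters' processing notes, the build was mm10 and the tools were HISAT2 2.1.0, featureCounts 1.6.1, cutadapt 1.16, DESeq2 1.26.0 and SAMtools 1.9. The annotation, the strand setting and the counting of multi-mapped reads are, in the sources used here, not given. The authors deposited raw counts per gene symbol in a table for each age, which all tests used, and gene lengths in bases, used for TPM. The deposited normalized signal equals raw counts over a size factor for each library, and served only for a check.

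Groups came from the treatment and age labels and replicate numbers from the titles. Counts of all 8 libraries were fitted with 4 group means in edgeR 4.0.16 (R 4.3.3; TMM factors 0.95 to 1.031; default expression filter, 15999 genes), tested with the quasi-likelihood F test and adjusted by Benjamini-Hochberg. An adjusted p under 0.05 made a call. The SE is the size of the log2 fold change over the square root of F. Printed CPM use the library total, and a count of 0 allows up to 3 counts (0.158 to 0.23 CPM), for counting error only. Exact permutation of 2 libraries against 2 cannot go below p = 0.333.

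The members and 12 further lists (other microglial genes, signals to microglia, activated phagocytes, other macrophages, monocytes and granulocytes, lymphocytes, erythroid cells, endothelium, meninges, choroid plexus, astrocytes, hippocampal neurons) were chosen with earlier results of these data known. Fold changes were printed for called members (at most 12 a direction), otherwise for the 4 with the smallest p, for the 4 border macrophage genes always, and for at most 4 genes of a further list. Alternatives were RLE and upper-quartile scaling, other count filters, DESeq2 1.42.0, limma voom (3.58.1), each age alone, the replicate number as a block, and libraries left out singly or by number; DESeq2 with the block and limma on each age alone were added after seeing the data. Fits were tested on simulated data. Promoter windows are RefSeq's (GRCm38.p6) and gene positions those of GENCODE M21. 1 gene of a further list is not reported here.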

Additional observations from a re-analysis of the deposited data

How the results depend on the processing

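Other scaling, other count filters and limma voom on all 8 libraries left every count of called members within 1.5 times its value. At postnatal day 3, DESeq2 on that age alone called 65 genes and 1 member (Mrc1), and 11 genes with the replicate block, under which Mrc1 was not called (adjusted p = 0.168). At week 8, DESeq2 called 1 gene on all 8 libraries, 1 on that age alone and 3 with the block, and without both week 8 libraries numbered 1 edgeR called 2, as for the difference between ages (2); no member was among them. DESeq2 on all 8 libraries called 4581 genes with age in IUGR and 4110 in NS. Leaving out single libraries gave 92 to 4069 genes in IUGR and 51 to 3801 in NS, and 0 to 11 and 0 to 14 members. Without both postnatal day 3 libraries of 1 number, 0 genes and 0 members were called in IUGR and 0 and 0 in NS. Without both week 8 libraries numbered 1, 9221 genes and 17 members were called in IUGR and 9520 and 22 in NS; without both numbered 2, 6778 and 21, and 6201 and 21. The causes were not tested. The replicate numbers are not taken as pairs: differences between replicates correlated between IUGR and NS at r = -0.0652 over genes at postnatal day 3 and 0.818 at week 8, with 2 pairs each, and the replicate block on all 8 libraries called 3500 genes with age in IUGR and 3008 in NS, with 9 and 10 members.

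Some signs reversed among the uncalled border macrophage genes. For IUGR against NS at week 8, the log2 fold change with single libraries left out ran from -1.25 to 0.10 for Lyve1, from -1.70 to 1.16 for Mrc1, from -0.71 to 0.44 for Cd163 and from -3.33 to 1.41 for Pf4. Leaving out both libraries numbered 1 gave 0.49 for Lyve1, 0.22 for Mrc1 and 0.12 for Cd163. For the difference between ages, the range was -0.79 to 2.07 for Mrc1, -0.14 to 1.23 for Lyve1 and -2.49 to 2.25 for Pf4. Leaving out both of 1 number gave -0.07 and -0.10 for Mrc1, -0.67 for Lyve1, and -0.17 and -0.49 for Pf4. With age in IUGR, Cd163 ran from -0.16 to 0.41 without single libraries, and was -0.06 and -0.17 without both numbered 1 at either age. The microglial sum at week 8 was 512 CPM scaled by TMM and 504 CPM without Rpph1 in IUGR, and 584 CPM without Rpph1 in NS.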

Other observations

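Endothelial genes, which are no members, were lower in IUGR at week 8 in both sets of libraries in their summed level. Of 15 genes, 14 had a negative log2 fold change (median -0.83) and 12 were lower without overlap, where 9.01% of all genes were so, and 0 were called by edgeR, with 9 at an unadjusted p under 0.05. The summed level was 191 and 158 CPM in IUGR, against 365 and 273 CPM in NS, a ratio of 0.523 among libraries numbered 1 and 0.579 among those numbered 2. Tie1, an endothelial receptor kinase, had 1.42 and 2.19 CPM in IUGR, against 5.83 and 7.79 CPM in NS (log2 fold change -1.84 ± 0.37, unadjusted p = 0.00191, adjusted p = 1 by edgeR). Flt1, a receptor for the growth factor VEGF, followed at -1.28 ± 0.35. Stab1, which endothelium of some vessels shares with macrophages, was lower in IUGR at week 8 too, at 12.3 and 12.3 CPM in IUGR, against 29.6 and 22.6 CPM in NS (log2 fold change -1.01 ± 0.28, unadjusted p = 0.00885, adjusted p = 1 by edgeR).

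Marker genes of blood cells were low in most libraries. The 16 monocyte and granulocyte genes summed to 6.46 and 6.78 CPM in IUGR and 26.0 and 9.88 CPM in NS at postnatal day 3, with NS replicate 1 above the others, and to 7.24 and 5.28 CPM in IUGR and 10.4 and 7.74 CPM in NS at week 8. The neutrophil gene S100a9 had 1.81 and 2.31 CPM in IUGR and 9.63 and 4.05 CPM in NS at postnatal day 3 (log2 fold change -1.73 ± 1.43, adjusted p = 1 by edgeR). The 12 lymphocyte genes summed to between 1.53 and 2.76 CPM in every library. Erythroid genes summed to 81.3 CPM in NS replicate 1 at week 8 and to 1.00 to 13.1 CPM in the other 7 libraries. Of the choroid plexus genes, Ttr ran from 22.2 to 6464 CPM over the 8 libraries.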
